A study of Homo sapiens with 8 samples.

Results

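Receptors for neurotrophins, for the GDNF family ligands and for the ALKAL cytokines were examined in human neuroblastoma (NB) cells exposed to media conditioned by embryonic ganglia. The members were chosen by name: NGFR, SORT1, NTRK2 and NTRK3 for the neurotrophins, RET and its co-receptors GFRA1, GFRA2 and GFRA3 for the GDNF family, and ALK. All 9 were found among the 60676 genes of the count matrix. IGR-N91, an established human NB cell line, was grown as aggregates in hanging drops for 20 h. Aggregates were kept in control medium, which had held no tissue, or in medium conditioned by chick sympathetic ganglia of embryonic day 8 (E8-cSGcm), chick dorsal root ganglia of the same day (E8-cDRGcm) or mouse sympathetic ganglia (E15.5-mSGcm, whose name gives the embryonic day). Each of the 4 groups had 2 libraries. All libraries came from 1 cell line. The conditioned media were made from ganglia pooled over embryos. E15.5-mSGcm differs from E8-cSGcm in species and stage together, and from E8-cDRGcm in ganglion type as well, so these cannot be told apart. The labels of the control libraries carry E8, as those of the chick media do, and no control is labelled E15.5. Whether the E15.5-mSGcm libraries were prepared together with the control libraries is not stated. A difference in preparation therefore cannot be told apart from the mouse medium. The labels do not say that the libraries of a group came from separate cultures, so p-values measure the spread between these libraries, which may be technical.

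Neurotrophins act through the Trk receptor tyrosine kinases and through NGFR (p75), a death domain receptor without kinase activity that also binds the unprocessed pro-neurotrophins together with sortilin (SORT1). GDNF family ligands bind a GPI-anchored GFRA co-receptor, which brings them to the RET kinase. ALK is activated by the small cytokines ALKAL1 and ALKAL2. These receptors control survival, migration and differentiation of neural crest-derived neurons, and NTRK2, RET and ALK have long been studied in NB, where ALK can carry activating mutations.

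The libraries held 7930765 to 15060744 counted reads, with the E15.5-mSGcm libraries the shallowest. Of the 8 noradrenergic neuroblast markers, 7 had at least 10 reads in every library, whereas the glial markers SOX10 and FABP7 and the endothelial markers CDH5 and TIE1 were at 0 in all of them. The noradrenergic markers summed to 1370 to 1400 CPM (reads scaled to library size, with TMM factors) in control medium, 1130 to 1210 with E8-cSGcm, 1100 to 1120 with E8-cDRGcm and 1000 to 1040 with E15.5-mSGcm. HAND2 held the largest part of each sum. It read 741 and 711 CPM in control medium, 671 and 738 with E8-cSGcm, 748 and 714 with E8-cDRGcm, and 527 and 516 with E15.5-mSGcm. By the call rule below (adjusted p under 0.05 and a fold of at least 1.5), 2, 5 and 3 of 8 markers fell with E8-cSGcm, E8-cDRGcm and E15.5-mSGcm. Of all genes tested, 8.59%, 20.7% and 13.9% were called. By adjusted p alone 6, 7 and 6 markers fell and 0, 0 and 1 rose, where 31.3%, 49.5% and 37.8% of all genes passed. The median log2 fold changes of the list were −0.44, −0.88 and −0.49. The 6 fibroblast markers, some of which NB cells also express, summed to 414 to 426, 433 to 446, 446 to 462 and 463 to 473 CPM in the same order. With E15.5-mSGcm 4 of the 6 were called, where 13.9% of all genes were. Of these, 3 rose, by 0.93 to 3.65 in log2, and COL1A1 fell by 1.82. The part of either list in the receptor results was not tested. In bulk RNA, fewer cells expressing a gene and less RNA of it per cell cannot be told apart.

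Proximal promoter sequence is shown for the 3 receptors that fell in at least 1 medium and have an entry in the RefSeq promoter table (GRCh38.p14), so that the receptors that fell with E15.5-mSGcm (RET and ALK) can be set beside the one that fell with the chick media (GFRA3). Each run is the 250 bases before the annotated start, 5′ to 3′ on the strand of the gene. Capitals mark E-boxes (CANNTG) and GC boxes (GGGCGG, or CCGCCC on the other strand). The runs lie at chr10:43076819-43077068 on the plus strand for RET, and on the minus strand at chr2:29921587-29921836 for ALK and chr5:138274622-138274871 for GFRA3.
RET: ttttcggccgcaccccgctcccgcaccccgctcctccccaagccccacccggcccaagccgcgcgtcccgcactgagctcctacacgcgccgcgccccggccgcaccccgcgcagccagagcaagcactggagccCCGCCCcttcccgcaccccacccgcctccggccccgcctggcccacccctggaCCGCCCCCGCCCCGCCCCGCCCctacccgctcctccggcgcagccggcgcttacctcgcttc
ALK: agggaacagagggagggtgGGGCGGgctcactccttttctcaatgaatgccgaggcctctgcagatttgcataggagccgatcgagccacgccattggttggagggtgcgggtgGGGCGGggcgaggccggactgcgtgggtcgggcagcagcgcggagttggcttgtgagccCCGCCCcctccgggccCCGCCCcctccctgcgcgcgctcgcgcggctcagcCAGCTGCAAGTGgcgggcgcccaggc
GFRA3: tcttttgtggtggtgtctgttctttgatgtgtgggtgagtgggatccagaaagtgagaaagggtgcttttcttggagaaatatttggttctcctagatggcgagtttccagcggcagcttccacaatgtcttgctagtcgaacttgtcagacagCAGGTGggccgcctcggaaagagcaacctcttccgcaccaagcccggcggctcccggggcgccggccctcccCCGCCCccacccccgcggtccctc
The RET run was 79.6% G and C and held 5 GC boxes but no E-box. The ALK run was 71.6% G and C, with 4 GC boxes and 2 adjoining E-boxes that begin 26 and 20 bases before the start. The GFRA3 run was 59.2% G and C, near the 58.0% median of 35116 promoters, with 1 E-box and 1 GC box. E-boxes occurred in 61.8% and GC boxes in 42.6% of those promoters. CRE (TGACGTCA), GATA-type (AGATAA and TGATAA) and ATF4-like (TGATGNAA) letters, searched on both strands, were not in these windows. They occurred in 1.65%, 9.17%, 6.66% and 3.14% of promoters, respectively. NGFR and GFRA2 had no entry in the table.

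Each medium was compared with control medium to ask which receptors NB cells raise or lower on exposure to ganglion cues. A gene was called when its adjusted p, from edgeR's quasi-likelihood test over 16680 genes, was under 0.05 and its fold change at least 1.5, the rule of the study. NGFR rose and GFRA3 fell with E8-cSGcm. With E8-cDRGcm, NGFR rose while GFRA2 and GFRA3 fell. With E15.5-mSGcm, NGFR, RET, GFRA2 and ALK fell. NTRK3 passed the filter on low counts only through the E15.5-mSGcm libraries, where it was high, so it is left out of the counts that follow and its levels are given without a test. Of the other 8 receptors, which had at least 10 reads in every library, 2 were called with E8-cSGcm against 8.59% of all genes tested, 3 with E8-cDRGcm against 20.7%, and 4 with E15.5-mSGcm against 13.9%. Without the fold threshold 3, 5 and 7 of the 8 passed, against 31.3%, 49.5% and 37.8% of all genes. The libraries of the 2 groups did not overlap for 6, 6 and 7 of the 8, against 63.6%, 73.5% and 68.3% of all genes, and nothing is read from these shares. The median log2 fold change of the 8 receptors was 0.12, −0.06 and −0.62 in the 3 media, against 0.01, 0.01 and −0.02 over all genes tested. The 3 comparisons share the same 2 control libraries, and differences between media were therefore taken from tests of medium against medium in the same fit.

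NGFR (ENSG00000064300, chromosome 17, 49495293 to 49515008, GRCh38.p14) moved furthest apart between media. The control libraries read 18.4 and 18.4 CPM. The libraries with E8-cSGcm read 31.4 and 30.4 CPM, those with E8-cDRGcm 53.8 and 54.5 CPM, and those with E15.5-mSGcm 5.25 and 7.08 CPM. No group overlapped another, and replicates lay closer together than any pair of groups. The log2 fold change against control medium was 0.75 ± 0.09 (SE, n = 2 libraries a group, adjusted p = 7.68e-08) with E8-cSGcm. It reached 1.56 ± 0.09, a 2.94-fold rise, with E8-cDRGcm (adjusted p = 2.11e-17). With E15.5-mSGcm NGFR fell by 1.56 ± 0.15 on the log2 scale, 2.95-fold (adjusted p = 3.96e-11). The order E15.5-mSGcm, control, E8-cSGcm, E8-cDRGcm held at each step, since E8-cDRGcm also exceeded E8-cSGcm by 0.81 ± 0.08 in log2 (adjusted p = 8.12e-10). Between E8-cDRGcm and E15.5-mSGcm the level differed 8.7-fold. The 2 opposite-strand transcripts that overlap NGFR exons had at most 3 reads in any library.

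SORT1 (ENSG00000134243, chromosome 1, 109309575 to 109397918) encodes sortilin, the sorting receptor that forms the pro-neurotrophin complex with p75. Its levels were 32.9 and 35.6 CPM in control medium, 34.2 and 30.3 with E8-cSGcm, 37.2 and 35.5 with E8-cDRGcm, and 38.3 and 43.9 with E15.5-mSGcm. Control medium overlapped both chick media, and E15.5-mSGcm lay above the rest. It was called in none of the media: the log2 fold changes were −0.09, 0.08 and 0.26, with adjusted p of 0.457, 0.44 and 0.0209 by edgeR's quasi-likelihood test. The 95% intervals reached no further than −0.271 to 0.448. The NGFR changes had no counterpart of comparable size in its co-receptor.

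NTRK2 (ENSG00000148053, chromosome 9, 84668522 to 85027054) encodes TrkB, the receptor of BDNF. Control libraries read 27.4 and 24.7 CPM, E8-cSGcm libraries 30.9 and 29.7, E8-cDRGcm libraries 17.4 and 18.0, and E15.5-mSGcm libraries 25 and 24.9. The E8-cDRGcm libraries were the lowest and overlapped no other group. Against control medium the log2 fold change there was −0.56 ± 0.10 (SE, n = 2 a group, adjusted p = 1.14e-05 by edgeR), a 1.47-fold difference just under the fold threshold. It passed without control replicate 2, at −0.63. Against E8-cSGcm, NTRK2 was 1.71-fold lower with E8-cDRGcm, a log2 difference of −0.77 ± 0.10 that was called (adjusted p = 7.74e-08). With E8-cSGcm and E15.5-mSGcm the log2 fold changes against control were 0.22 and −0.06, with adjusted p of 0.0622 and 0.69.

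Since NGFR was higher and NTRK2 lower in the E8-cDRGcm libraries, their ratio spread further than either gene. Reads of NGFR per read of NTRK2 came to 0.669 and 0.747 in control medium, 1.02 and 1.02 with E8-cSGcm, 3.1 and 3.02 with E8-cDRGcm, and 0.21 and 0.284 with E15.5-mSGcm. The 4 groups did not overlap. This ratio is of reads, not of molecules, because the transcripts differ in length.

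NTRK3 (ENSG00000140538, chromosome 15, 87859751 to 88256739), which encodes TrkC, the receptor of the NTF3 product, was the rarest member. Control medium yielded 5 and 11 reads of it, E8-cSGcm 6 and 4, E8-cDRGcm 2 and 6, and E15.5-mSGcm, at lower depth, 11 and 18. In CPM this was 0.382 and 0.723 in control medium and 1.41 and 2.06 with E15.5-mSGcm. The E15.5-mSGcm levels lay above all others. The log2 fold change against control medium was 1.61, and it was 1.26 without control replicate 1 and 1.31 without E15.5-mSGcm replicate 2. No test or interval is read from it, because the E15.5-mSGcm libraries alone carried NTRK3 past the filter. With the chick media no difference from control was detectable at this depth.

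RET (ENSG00000165731, chromosome 10, 43077069 to 43130351), the signalling kinase of the GDNF family, fell with the mouse medium. Its levels were 427 and 400 CPM in control medium, 433 and 427 with E8-cSGcm, 390 and 380 with E8-cDRGcm, and 222 and 242 with E15.5-mSGcm. The E15.5-mSGcm libraries lay far below all others, and the rest spanned a narrow range. The fall was 1.78-fold, a log2 fold change of −0.83 ± 0.05 (n = 2 a group, edgeR adjusted p = 9.23e-16). Against E8-cSGcm and E8-cDRGcm the E15.5-mSGcm level was 1.85-fold and 1.66-fold lower (adjusted p = 7.21e-17 and 1.19e-14). The log2 fold changes with the chick media were 0.06 and −0.10, with 95% intervals of −0.044 to 0.157 and −0.205 to −0.004. The noradrenergic markers, as a list, were lowest by median fold change with E8-cDRGcm and by summed level, of which HAND2 held the largest part, with E15.5-mSGcm. Their relation to the RET level was not tested.

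GFRA2 (ENSG00000168546, chromosome 8, 21690398 to 21812345), the preferred co-receptor of neurturin, was below control medium in all 3 media. Control libraries read 40.6 and 44.1 CPM, E8-cSGcm libraries 31.4 and 28.1, E8-cDRGcm libraries 24.7 and 23.3, and E15.5-mSGcm libraries 8.97 and 9.37. The 4 groups did not overlap. With E15.5-mSGcm GFRA2 fell 4.62-fold, a log2 fold change of −2.21 ± 0.12 (n = 2 a group, edgeR adjusted p = 1.02e-17). With E8-cDRGcm it fell 1.77-fold, a log2 fold change of −0.82 ± 0.09 (adjusted p = 5.75e-10). With E8-cSGcm the log2 fold change of −0.51 ± 0.09 had an adjusted p of 1.09e-05 but a fold of 1.43, under the threshold, and was called without E8-cSGcm replicate 1 (−0.59). The difference between both chick media was −0.31 in log2 (adjusted p = 0.0101), also under the fold threshold.

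GFRA3 (ENSG00000146013, chromosome 5, 138252380 to 138274621), the artemin co-receptor known from nociceptive sensory and sympathetic neurons, showed another order. The levels were 34.3 and 36.8 CPM in control medium, 20.1 and 20.6 with E8-cSGcm, 11 and 14.4 with E8-cDRGcm, and 29.3 and 24.8 with E15.5-mSGcm. No groups overlapped, and the chick media gave the low values. GFRA3 fell 1.75-fold with E8-cSGcm (log2 fold change −0.81 ± 0.10, n = 2 a group, edgeR adjusted p = 5.5e-08) and 2.8-fold with E8-cDRGcm (−1.49 ± 0.11, adjusted p = 3.19e-14). With E15.5-mSGcm the log2 fold change of −0.40 (adjusted p = 0.00249) was under the fold threshold. The E15.5-mSGcm level exceeded that of E8-cDRGcm 2.12-fold (adjusted p = 1.58e-09). E8-cDRGcm was below E8-cSGcm by 0.68 in log2 (adjusted p = 2.61e-05), a call lost without E8-cDRGcm replicate 1 (−0.51). The study lists GFRA3 among genes of tumor escape that it chose partly on these libraries, so its direction here is not independent of that list.

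GFRA1 (ENSG00000151892, chromosome 10, 116056925 to 116274705), the main co-receptor of GDNF, was the only co-receptor whose mean was above control medium in all 3 media. Control libraries read 56.4 and 57.0 CPM, E8-cSGcm libraries 70.2 and 59.0, E8-cDRGcm libraries 68.1 and 65.4, and E15.5-mSGcm libraries 77.9 and 91.6. All conditioned libraries lay above both control libraries, with E15.5-mSGcm the highest. Against control medium the E15.5-mSGcm log2 fold change of 0.58 ± 0.08 (n = 2 a group, edgeR adjusted p = 3.8e-07) rounded to 1.5-fold but lay just under the threshold. It was called under 4 other settings, such as RLE size factors (0.59), and when control replicate 2 (0.59) or E15.5-mSGcm replicate 1 (0.69) was left out. The chick media gave log2 fold changes of 0.18 and 0.23 (adjusted p = 0.0697 and 0.0115). An opposite-strand transcript that overlaps 421 bases of GFRA1 exons had at most 6 reads.

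Set against each other per kilobase of exon, the co-receptors changed places. GFRA3 made up 58.3% and 58.8% of the summed GFRA1, GFRA2 and GFRA3 level in control medium, 45.7% and 49.9% with E8-cSGcm, 34.2% and 41.5% with E8-cDRGcm, and 62.5% and 55.0% with E15.5-mSGcm. GFRA2 held 23.8% and 24.2% in control medium and only 6.57% and 7.15% with E15.5-mSGcm, while with the chick media it stayed between 23.2% and 26.4%. GFRA1 went from 17.9% and 17.0% in control medium to between 26.7% and 39.5% in the conditioned libraries, all above control. The ratio of RET to the summed co-receptors, again per kilobase, was 1.61 and 1.42 in control medium. It was 2.18 and 2.29 with E8-cSGcm and 2.68 and 2.43 with E8-cDRGcm, where the co-receptor sum was lower, and 1.05 and 1.19 with E15.5-mSGcm, where RET was lower too. The ratios of the 4 groups did not overlap. These shares depend on the exonic length taken for each gene and were not tested.

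ALK (ENSG00000171094, chromosome 2, 29192774 to 29921586) fell with the mouse medium, as RET did. The levels were 8.03 and 8.94 CPM in control medium, 10.7 and 10.6 with E8-cSGcm, 7.93 and 8.79 with E8-cDRGcm, and 5.00 and 4.11 with E15.5-mSGcm. E15.5-mSGcm was the lowest group and E8-cSGcm the highest, while E8-cDRGcm overlapped control medium. The fall was 1.88-fold (log2 fold change −0.91 ± 0.20, n = 2 a group, edgeR adjusted p = 0.00029). Against E8-cSGcm the E15.5-mSGcm level was 2.35-fold lower, and against E8-cDRGcm 1.84-fold (adjusted p = 1.06e-06 and 0.000244). The chick media gave log2 fold changes of 0.32 and −0.03 (adjusted p = 0.0924 and 0.909). Of the 7382 exonic bases of ALK, 135 overlap exons of CLIP4 on the opposite strand, and the strand setting used to count reads is not given in the sources used here. Scaled like ALK, CLIP4 read 12.5 and 11.7 CPM in control medium, 12.3 and 13.9 with E8-cSGcm, 20.3 and 16.8 with E8-cDRGcm, and 11 and 12 with E15.5-mSGcm, where its libraries overlapped control medium. The study counts ALK and RET among noradrenergic genes.

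On a per-kilobase scale RET was the most abundant of the 9 receptors in every group, at 46.1, 47.9, 42.9 and 25.9 CPM per kb in control medium, E8-cSGcm, E8-cDRGcm and E15.5-mSGcm. GFRA3 followed at 17.9 CPM per kb in control medium. NGFR went from 4.44 CPM per kb in control medium, rank 5, to 7.46 (rank 3) with E8-cSGcm and 13.1 (rank 2) with E8-cDRGcm, and to 1.49 (rank 6) with E15.5-mSGcm. NTRK3 was the lowest throughout, at 0.0647 CPM per kb or less. The place of NTRK2 depends on the length used: its exons span 33162 bases over all transcripts but 8666 in the canonical one, which gives 0.786 or 3.01 CPM per kb in control medium.

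Between media, leaving out NTRK3, 3 of 8 receptors were called for E8-cDRGcm against E8-cSGcm (7.49% of all genes), 4 of 8 for E15.5-mSGcm against E8-cSGcm (22.3%) and 5 of 8 for E15.5-mSGcm against E8-cDRGcm (26.2%). Without the fold threshold 5, 8 and 7 passed, against 30.2%, 49.8% and 52.6%, and the groups did not overlap for 7, 8 and 8, against 62.3%, 73.5% and 74.9%. NGFR was called in all 6 pairwise comparisons. GFRA2, RET and ALK were each called in the 3 that involve E15.5-mSGcm, and GFRA2 also for E8-cDRGcm against control. GFRA1 and SORT1 were called in none.

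The other genes of these pathways were taken from 7 lists, of which 60 of 71 genes were tested. With E8-cSGcm 3 rose and 7 fell, with E8-cDRGcm 11 rose and 5 fell, and with E15.5-mSGcm 6 rose and 7 fell. These are 16.7%, 26.7% and 21.7% of the genes tested, beside the 8.59%, 20.7% and 13.9% of all genes above.

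Among the ligands, BDNF, the TrkB ligand, rose with E15.5-mSGcm and was called with neither chick medium. It went from 34.3 and 32.4 CPM in control medium to 73.5 and 95.8 with E15.5-mSGcm, 2.55-fold (edgeR adjusted p = 6.37e-12). E8-cSGcm gave 37.5 and 36.7 and E8-cDRGcm 37.2 and 41.8 CPM. The E15.5-mSGcm level also exceeded both chick media (log2 differences 1.20 and 1.11, adjusted p = 3.5e-11 and 8.86e-11). NTF3 and NTF4 were at 0 in every library.

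Of the GDNF family ligands, NRTN, which encodes the GFRA2 ligand neurturin, had 20 and 29 reads in control medium, 38 and 58 with E8-cSGcm, 51 and 59 with E8-cDRGcm, and 8 and 6 with E15.5-mSGcm. Scaled to library size, both chick groups lay above control medium and the mouse group below. It rose with E8-cDRGcm (log2 fold change 1.23, edgeR adjusted p = 0.000226) and with E8-cSGcm (1.04, 0.00331), the latter lost with DESeq2 (0.0763) and without E8-cSGcm replicate 2 (0.0858). The E15.5-mSGcm log2 fold change of −1.02 did not pass (0.0558), while E15.5-mSGcm was below both chick media (−2.07 and −2.25, adjusted p = 1.59e-05 and 2.1e-06).
GDF15, a stress-induced ligand of the GFRAL–RET complex, had 0 and 2 reads in control medium, 47 and 60 with E8-cSGcm, 257 and 309 with E8-cDRGcm, and 6 and 17 with E15.5-mSGcm. All conditioned libraries lay above control, and the rise passed in each medium (adjusted p = 1.22e-10, 2.2e-20 and 3.97e-05), although a fold against so few reads is not given. GFRAL, its receptor, was at 0 in every library. GDNF itself was called in no medium, at 9.02 and 8.22 CPM in control medium and 11.7 and 11.8 with E15.5-mSGcm (log2 fold change 0.45, adjusted p = 0.0278). Of the ALK ligands, ALKAL1 was at 0 and ALKAL2 had at most 1 read in a library. MDK and PTN, growth factors also linked to ALK, were detected and not called in any medium. By adjusted p alone 2 of 2 rose with each chick medium, where 31.3% and 49.5% of all genes passed, and 1 fell with E15.5-mSGcm (37.8%). PTN read 494 and 459 CPM in control medium, 616 and 659 with E8-cSGcm, 622 and 597 with E8-cDRGcm, and 431 and 415 with E15.5-mSGcm.

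Among other receptors, LTK, the kinase closest to ALK, fell with E15.5-mSGcm from 17.1 and 18.1 to 9.35 and 10.4 CPM (log2 fold change −0.83, edgeR adjusted p = 4.02e-06). LINGO1, a partner of p75 in the Nogo receptor complex, fell there by 1.3 in log2 (adjusted p = 2.32e-07). SORCS3, a sortilin relative, rose by 0.77 there (adjusted p = 0.000394). LRIG1, a negative regulator of RET and other receptor kinases, read 0.612 and 0.592 CPM in control medium and 1.41 and 1.71 with E15.5-mSGcm (adjusted p = 0.0445), and was not called with DESeq2 (0.242) or without any 1 of these 4 libraries (adjusted p of 0.0904 to 0.237). With E8-cDRGcm, NCAM1, an alternative partner of the GFRA co-receptors, and the endocytic receptor LRP1 rose by 0.66 and 1.04 in log2, and SORL1, another sortilin relative, fell by 0.75.

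Of the 6 p75 partners, 3 were called with E8-cDRGcm, where 20.7% of all genes were. BEX3, the p75-associated death executor, fell from 353 and 349 to 172 and 177 CPM there (log2 fold change −1.01, edgeR adjusted p = 1e-18). RIPK2, a kinase recruited to the p75 death domain, rose by 0.78 in log2 (adjusted p = 1.6e-08), and FURIN, which cleaves pro-neurotrophins, by 0.99 (adjusted p = 1.02e-12). With E8-cSGcm the same 3 genes had log2 fold changes of −0.46, 0.26 and 0.48, and with E15.5-mSGcm −0.04, 0.45 and 0.12.

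Of 27 tested adaptors, 2 were called with E8-cSGcm, 5 with E8-cDRGcm and 2 with E15.5-mSGcm, which is 7.41%, 18.5% and 7.41% of them and no more than the 8.59%, 20.7% and 13.9% of all genes. SHC3, a neuronal Trk adaptor, fell with E8-cSGcm and E8-cDRGcm (log2 fold changes −0.82 and −0.99, edgeR adjusted p = 2.05e-13 and 2.94e-16), and was at 0.29 with E15.5-mSGcm. DOK4, a RET substrate, fell in all 3 media, from 408 and 387 CPM in control medium to 230 and 229, 195 and 193, and 171 and 169 CPM (adjusted p = 1.04e-15, 1.34e-19 and 6e-21). SH2B3 and DOK6 rose with E8-cDRGcm (1.26 and 0.98).

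Transcripts commonly induced by receptor tyrosine kinases split. VGF, a neuropeptide precursor induced by neurotrophins, rose from 812 and 827 CPM in control medium to 1660 and 1560 with E8-cSGcm and 5660 and 6260 with E8-cDRGcm, and read 905 and 889 with E15.5-mSGcm. The rise was 1.97-fold and 7.28-fold (edgeR adjusted p = 1.21e-17 and 8.09e-32). In contrast, 5 of the 9 genes fell with E8-cSGcm, where 8.59% of all genes were called: EGR1, ARC, DUSP6, SPRY2 and SPRY4, the first 2 immediate early genes and the others feedback inhibitors of ERK signalling, with log2 fold changes between −1.09 and −0.64. SPRY2 fell with E8-cDRGcm as well (−0.96), where FOS rose (1.3, adjusted p = 0.000205). With E15.5-mSGcm DUSP6, ARC and EGR1 fell by 0.95, 0.88 and 0.71 in log2, the last not passing with DESeq2 (adjusted p = 0.0679), without control replicate 1 (0.0948) or without E15.5-mSGcm replicate 2 (0.0689).

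For each receptor called in a medium, the genes with the most similar profile over the 8 libraries were sought, as a description. NTRK3, whose call is not read, is left out. The search covered 10339 genes with a mean log2 CPM of at least 3. CDC20, an activator of the anaphase-promoting complex, was nearest to NGFR (Pearson r = 0.996), although its own mean level spanned only 45.1 to 90.6 CPM over the groups, and AEBP1 came next (0.995). MIR1915HG and MOCS3 were nearest to GFRA3 (0.993 and 0.992), with log2 fold changes of −1.64 and −1.11 with E8-cDRGcm. FSCN1, an actin-bundling protein, and PMP22, a myelin protein, were nearest to GFRA2 (0.992 and 0.987). MAPKAPK3 and NPTXR were nearest to RET (0.991 and 0.991), and EHHADH and ZCCHC24 to ALK (0.995 and 0.990). The 8 points fall into 4 groups, so these values mostly reflect the order of the group means.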

How the data were processed

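Counts of 8 RNA-seq libraries of IGR-N91 aggregates, 2 a group, were analysed. The authors prepared stranded total RNA libraries, ran bcl2fastq 2.17.1.14, cutadapt 1.9.1, TopHat2 2.1.0 and HTSeq 0.11.3 per the labels, and deposited raw counts per Ensembl gene, not normalized. The study's methods name hg19 and the submitters' processing notes hg38; the counts carry no coordinates. The strand option and annotation release are not given in the sources used here. Positions and promoters came from RefSeq GRCh38.p14, symbols (58611 of 60676 IDs) and exonic lengths from GENCODE.

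Genes passing filterByExpr (16680) were scaled by TMM and tested with edgeR 4.0.16 (R 4.3.3; robust quasi-likelihood fit of all 8 libraries, Benjamini-Hochberg adjustment). Calls needed an adjusted p under 0.05 and a fold of at least 1.5. In simulated E8-cSGcm data with the same 16680 genes, 200 genes drawn from those above a minimum mean count were changed 2-fold. Of these 89.5% were recovered, and 5 unchanged genes were called. The recovery does not cover genes of few reads. DESeq2 1.42.0, other scalings, filters, thinning, the replicate block and leaving out each library were alternatives. A count of 3 corresponded to 0.197 to 0.384 CPM. Members and lists were chosen with earlier results of these data known. The rule for named genes took all 9 members, up to 25 called pathway genes with the largest changes, and the 2 nearest profiles of each called member. The profiles nearest to NTRK3 are not given. Of 7 pathway lists, 70 of 71 genes matched a symbol. Some genes of the lists are not reported here.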

Additional observations from a re-analysis of the deposited data

Results flagged for a closer look

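NGFR moved in opposite, called directions between media, and the difference itself was tested in the same edgeR fit. With E15.5-mSGcm its log2 fold change against control medium was −1.56, and with E8-cSGcm 0.75. The difference was −2.31 ± 0.134 (adjusted p = 5.63e-17). Against E8-cDRGcm, where it was 1.56, the difference was −3.12 ± 0.123 (adjusted p = 3.62e-22). All 4 chick medium libraries lay above both control libraries and both E15.5-mSGcm libraries below.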

How the results depend on the processing

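No direction reversed. Without the fold threshold the called receptors numbered 5 with E8-cDRGcm, 8 with E15.5-mSGcm (NTRK3 included here and below), 5 for E8-cDRGcm against E8-cSGcm and 9 for E15.5-mSGcm against E8-cSGcm. Called pathway genes then numbered 27, 36 and 34 with E8-cSGcm, E8-cDRGcm and E15.5-mSGcm, where 31.3%, 49.5% and 37.8% of all genes passed. They numbered 29, 45 and 43 for E8-cDRGcm against E8-cSGcm, E15.5-mSGcm against E8-cSGcm and E15.5-mSGcm against E8-cDRGcm. In those comparisons 30.2%, 49.8% and 52.6% of all genes passed. Fewer criteria apply without the fold threshold, and nothing is read from these receptor or pathway counts. DESeq2 without independent filtering, chosen after seeing the data, called 3 pathway genes for E8-cDRGcm against E8-cSGcm instead of 5, and the cause was not tested. Leaving out single libraries moved no count by over 1.5 times. The calls of single genes that depend on a setting were NTRK3, LRIG1 and EGR1 with E15.5-mSGcm, NRTN with E8-cSGcm and GFRA3 between the chick media (lost), and GFRA1 and FOS with E15.5-mSGcm, GFRA2, SH2B3 and LRP1 with E8-cSGcm, and NTRK2 and LTK with E8-cDRGcm (gained). Of the gained calls not described above, SH2B3 passed without control replicate 1 (0.64), LRP1 without control replicate 2 (0.65) or E8-cSGcm replicate 2 (0.60), LTK without control replicate 2 (0.62) and FOS without control replicate 1 (1.07). A filter of 10 counts in every library removed NTRK3, from which no test is read. Replicate numbers did not pair the libraries: correlations of deviations between groups were −0.0437 to 0.042. With the replicate block 2, 3 and 5 receptors were called in the 3 media, NTRK3 included, as without it, and 10, 16 and 13 pathway genes. With 2 libraries a group, the spread rests on all 4 groups, and the shallower E15.5-mSGcm libraries limit genes of few reads, such as NTRK3 and NRTN.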

Other observations

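DRGX, a homeobox gene of the sensory neuron marker list, held most of that list's reads in control medium and with E15.5-mSGcm, and was chosen here after its values were seen. It had 588 and 576 reads in control medium, 58 and 74 with E8-cSGcm, 32 and 27 with E8-cDRGcm, and 479 and 558 with E15.5-mSGcm. It fell 8.36-fold and 18.8-fold with the chick media and rose 1.52-fold with E15.5-mSGcm (edgeR adjusted p = 5.76e-21, 7.82e-24 and 6.37e-07). Its lowest levels fall in the groups with the lowest GFRA3, and a relation between both genes was not tested. AVIL, of the same list, had 5 to 33 reads. It also fell with E8-cSGcm and rose with E15.5-mSGcm by the call rule, the latter not passing with DESeq2 (adjusted p = 0.0673). TRPV1 was called in no medium. SCN10A, another sensory marker, was at 0 in every library.

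The noradrenergic markers did not move as 1 group. DBH fell with both chick media, from 37.8 and 37.2 CPM to 17.7 and 16.9 and to 9.2 and 10 CPM, whereas it read 48.4 and 55.2 CPM with E15.5-mSGcm. TH fell with E15.5-mSGcm, by 3.03 in log2 (edgeR adjusted p = 2.27e-11). Both were read from the marker list after its values were seen.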
